A study of Mus musculus with 8 samples.

Results

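The Schlafen genes are a family of immune and interferon-related genes that lie side by side on mouse chromosome 11. The members were chosen by name: of the 52636 rows of the deposited expression table, the 7 rows named Slfn1, Slfn2, Slfn3, Slfn4, Slfn5, Slfn8 and Slfn9 were taken. All 7 were among the 12816 genes that reached the minimum for testing, a scaled value of 60 in at least 2 libraries. They were followed in splenic CD4+ Foxp3- conventional T cells (Tconvs) and CD4+ Foxp3+ regulatory T cells (Tregs).

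RNA was sequenced from Tconvs and Tregs of CD27+/- control mice and of CD11c-Cd70tg;CD27+/- mice (CD70Tg), as 2 libraries for each combination of cell subset and genotype, 8 in all. The transgene places CD70, which binds the costimulatory receptor CD27, under the CD11c promoter, which is active in dendritic cells, and the T cells studied here were the receiving side. All mice carried 1 intact Cd27 allele and a Foxp3 eGFP reporter and were 6 to 8 weeks old. Each sample was 200000 cells sorted as GFP- (Tconvs) or GFP+ (Tregs) after magnetic depletion of other cells, and an antibody to CD25 was added to the depletion for Tconvs and not for Tregs. The labels do not say whether the 2 libraries of a group came from separate animals, so the p-values below measure the spread between libraries, which may be technical.

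The authors scaled the read counts of each library to 20 M and took the next whole number, so that a scaled value of 20 stands for 1 read per M. The steps between low values gave 1.91 to 4.57 M reads on genes in the Treg libraries and 6.94 to 33.3 M in the Tconv libraries, so that depth differed with the subset. The value of 33.3 M is less certain, since the step of that library is under 1 and was read from how often each value occurs. Libraries are called first and second by the order of their columns. Foxp3, which the reporter sort used, was at 19769 to 21367 in Tregs and 1039 to 1497 in Tconvs, and Cd4 and Cd3e were no lower than 16100 and 11384 in any library. In bulk RNA of sorted cells, fewer cells that express a gene and less RNA per cell cannot be told apart.

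Schlafen proteins share a core domain that acts on RNA, and the long members carry in addition a helicase-like part at their end. By size, Slfn1 and Slfn2 are the short members, Slfn3 and Slfn4 the intermediate ones, and Slfn5, Slfn8 and Slfn9 the long ones. The family was named for its members' ability to hold back the growth of thymocytes, an effect first seen with Slfn1. Slfn2 keeps resting T cells quiescent and shields tRNAs from cleavage once the cells are activated. Several members are induced by interferons, through the interferon-stimulated response element (ISRE) that binds interferon regulatory factors and STAT complexes.

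The locus spans 263.8 kb of chromosome 11 in GENCODE M21 (GRCm38, the same build as the authors' mm10), from Slfn5 at 82951349 to the end of Slfn3 at 83215154. Along it stand, in order, Slfn5, Slfn9, Slfn8, the pseudogene Slfn10-ps, Slfn2, Slfn1, Slfn4 and Slfn3. Slfn9, Slfn8 and Slfn10-ps are read from the - strand and the other members from the + strand. The promoters of the members that the results turn on are given here as the 160 bases before the RefSeq start (GRCm38.p6), read 5′ to 3′ on the strand of the gene. Capitals mark the ISRE, searched as GAAANNGAAA on both strands, in which N is any base.

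Slfn5, chr11:82951942-82952101, + strand: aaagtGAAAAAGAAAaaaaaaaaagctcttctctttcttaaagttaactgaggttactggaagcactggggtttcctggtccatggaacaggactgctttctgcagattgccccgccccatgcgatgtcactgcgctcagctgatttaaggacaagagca
Slfn9, chr11:82991831-82991990, - strand: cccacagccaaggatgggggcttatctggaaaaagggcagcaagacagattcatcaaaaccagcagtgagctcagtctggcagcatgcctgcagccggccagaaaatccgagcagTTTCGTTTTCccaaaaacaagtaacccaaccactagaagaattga
Slfn8, chr11:83020811-83020970, - strand: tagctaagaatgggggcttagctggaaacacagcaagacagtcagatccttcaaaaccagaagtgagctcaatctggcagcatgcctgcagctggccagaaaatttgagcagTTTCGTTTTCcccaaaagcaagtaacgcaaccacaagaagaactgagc
Slfn2, chr11:83064952-83065111, + strand: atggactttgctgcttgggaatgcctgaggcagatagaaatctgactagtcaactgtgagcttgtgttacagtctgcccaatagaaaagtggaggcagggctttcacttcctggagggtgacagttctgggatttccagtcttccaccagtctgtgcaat
Slfn1, chr11:83116660-83116819, + strand: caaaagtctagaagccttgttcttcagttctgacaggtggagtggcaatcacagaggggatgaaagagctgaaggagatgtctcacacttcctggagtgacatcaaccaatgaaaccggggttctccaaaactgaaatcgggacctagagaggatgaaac

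All 7 members had a promoter in the RefSeq table, and the ISRE letters were present within 250 bases before the start in Slfn5, Slfn8 and Slfn9, which is 3 of 7. The same letters were in 2.98% of 32851 promoters of this length. The RefSeq start of Slfn5 lies inside the gene as GENCODE draws it, in its 5′ part. The match began 155 bases before the start in Slfn5, 48 in Slfn8 and 45 in Slfn9, and the latter pair carried the same 10 letters, TTTCGTTTTC. In a global alignment the stretches of Slfn8 and Slfn9 were identical at 82.4% of 165 columns, and the other 9 pairs of the stretches shown at 48.1 to 56.0%. These are matches of letters only, and nothing on binding follows from them. All 3 members with the ISRE letters are long members, and neither short member held them in this window.

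Slfn2 and Slfn1 were the highest of the members in every library once the values were divided by the length of their exons. Undivided, Slfn1 was at only 0.716 to 0.799 times the scaled value of Slfn8 in the Treg libraries. In control Tconvs, Slfn2 was at 9317 ± 532 per kb of exon (SD, n = 2) and Slfn1 at 4362 ± 25.4 per kb. Slfn8 followed at 703 ± 19.4 and Slfn5 at 607.5 ± 77.1 per kb. Slfn3 at 55.1 ± 4.15, Slfn9 at 43.2 ± 5.10 and Slfn4 at 21.2 ± 3.21 per kb made up the low end. Slfn8 and Slfn5 lay close together in control Tconvs, and in CD70Tg Tconvs the ranges of Slfn3 and Slfn9 overlapped, so that their order there is not resolved.

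In Tregs the order of the upper 4 members did not change, but Slfn9 stood above Slfn3. Control Tregs had Slfn2 at 4736 ± 173 and Slfn1 at 1568 ± 22.8 per kb, with Slfn8 at 923.5 ± 27.7 and Slfn5 at 583.5 ± 24.4 per kb (SD, n = 2). Slfn9 was at 140.1 ± 2.49, Slfn3 at 52.5 ± 10.4 and Slfn4 at 13.1 ± 5.71 per kb. The sum of the 7 members per kb was 15109 ± 659 in control and 14889 ± 796 in CD70Tg Tconvs, against 8016 ± 161 in control and 7222 ± 67.3 in CD70Tg Tregs. The short members made up 90.4 to 91.6% of that sum in the Tconv libraries and 78.4 to 80.3% in the Treg libraries. Slfn1 alone made up 28.1 to 32.2% in the Tconv and 19.1 to 20.5% in the Treg libraries, whereas the share of Slfn2 overlapped between them, at 59.3 to 62.2% and 58.2 to 59.8%.

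**Figure D1:**
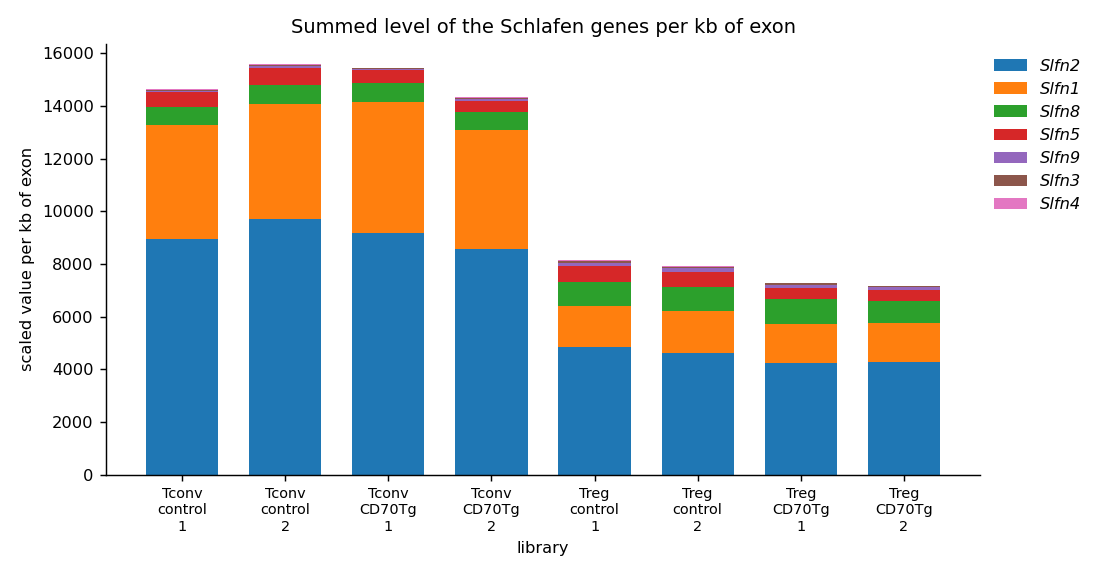
Summed level of the 7 Schlafen genes in each library, as scaled value per kb of exon (y axis), stacked by gene; each bar is 1 library (x axis). The Tconv bars reach 14326 to 15575 and the Treg bars 7174 to 8130, and the blocks of Slfn2 and Slfn1 fill most of every bar.

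Most calls in the family were between Tregs and Tconvs. In control mice, Slfn1 and Slfn2 were lower in Tregs and Slfn8 and Slfn9 higher, at an adjusted p under 0.05 in limma, a linear model fitted over all 12816 genes on log2(value + 5). Of the tested genes, 27.5% were higher and 18.4% lower in Tregs by the same rule, so that a count of 2 members higher and 2 lower is close to the background of this comparison. With a log2 difference over 1 required as well, as the study does, Slfn9 was called higher and Slfn1 lower, where 14.7% of all genes were called higher and 4.43% lower. The groups of 5 members, all but Slfn3 and Slfn5, did not overlap, as for 76.2% of all genes. The median log2 difference of the members was -0.08, and that of all genes 0.07.

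Slfn1 (ENSMUSG00000078763, chr11:83116849-83122670) showed the steepest fall. Its scaled value was 8098 and 8165 in control Tconvs and 2892 and 2952 in control Tregs. The groups lay far apart, and Slfn1 in Tregs was 0.36 times that in Tconvs (95% interval 0.307 to 0.421, log2 difference -1.48, SE 0.11, adjusted p = 2.13e-08, limma). In CD70Tg mice the values were 9284 and 8410 in Tconvs and 2769 and 2746 in Tregs, a log2 difference of -1.68 (SE 0.11, adjusted p = 7.29e-09, limma). No reading in Tregs came near those in Tconvs in either genotype.

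Slfn2 (ENSMUSG00000072620, chr11:83065112-83070678), the quiescence factor, followed Slfn1 with a smaller step. It was at 14877 and 16130 in control Tconvs and at 8084 and 7676 in control Tregs. Again the subsets did not overlap, with Tregs at 0.509 times the Tconv level (95% interval 0.432 to 0.599, log2 difference -0.98, SE 0.11, adjusted p = 3.42e-06, limma). In CD70Tg mice Slfn2 was at 15256 and 14278 in Tconvs and 7043 and 7139 in Tregs, a log2 difference of -1.06 (adjusted p = 1.99e-06, limma). Slfn2 thus passed the threshold of 1 on the log2 scale in CD70Tg mice and lay just under it in control mice. The scaled value of Slfn2 was 1.64 to 1.98 times that of Slfn1 in the Tconv libraries and 2.54 to 2.80 times in the Treg libraries.

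Slfn9 (ENSMUSG00000069793, chr11:82978390-82991830), a long member, went the other way. It was at 236 and 279 in control Tconvs and 825 and 846 in control Tregs. Both Treg libraries stood above both Tconv libraries, by 3.21 times (95% interval 2.37 to 4.36, log2 difference 1.68, SE 0.21, adjusted p = 7.76e-06, limma). In CD70Tg mice the values were 219 and 341 in Tconvs and 795 and 729 in Tregs, a log2 difference of 1.46 (SE 0.21, adjusted p = 4.32e-05, limma). The lowest Treg library of either genotype, at 729, was above the highest Tconv library, at 341.

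Slfn8 (ENSMUSG00000035208, chr11:83002158-83020810), the neighbour of Slfn9 on the same strand, was higher by less. Its values were 2820 and 2932 in control Tconvs and 3698 and 3858 in control Tregs. The groups did not overlap, and Tregs were 1.31 times higher (95% interval 1.11 to 1.55, log2 difference 0.39, SE 0.11, adjusted p = 0.00973, limma). In CD70Tg mice it was at 2974 and 2741 in Tconvs and 3866 and 3437 in Tregs, a log2 difference of 0.35 (adjusted p = 0.0197, limma). The call in control mice was lost without the second control Treg library (adjusted p = 0.0891) or the first control Tconv library (0.0511), and that in CD70Tg mice without the first CD70Tg Treg library (0.187) or the second CD70Tg Tconv library (0.0787, all limma). Slfn8 was 8.04 to 13.6 times Slfn9 in scaled value in the Tconv libraries and 4.48 to 4.86 times in the Treg libraries, so that the ratio was lower in every Treg library than in any Tconv library.

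Slfn5 differed little between the subsets, with a log2 difference of -0.05 in control mice (95% interval -0.31 to 0.20, adjusted p = 0.744) and of -0.13 in CD70Tg mice (-0.39 to 0.12, adjusted p = 0.393, limma). The intermediate members rested on few reads. Slfn3 was at 198 and 178 in control Tconvs and 204 and 154 in control Tregs, and these ranges overlapped. In CD70Tg mice it was at 159 and 197 in Tconvs and 157 and 93 in Tregs, next to each other without overlap (log2 difference -0.53, 95% interval -1.16 to 0.09, adjusted p = 0.16, limma). Without the first CD70Tg Treg library, the shallowest, that difference was -0.89 (adjusted p = 0.0447), and without the second -0.17 (adjusted p = 0.701, limma).

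Slfn4, best known from myeloid cells, was the lowest member. It was at 75 and 93 in control Tconvs and 68 and 36 in control Tregs, and at 73 and 84 in CD70Tg Tconvs and 42 and 60 in CD70Tg Tregs. The Treg values stand on only 14, 8, 4 and 11 reads in that order. The log2 difference between the subsets was -0.69 in control mice (95% interval -1.51 to 0.12, adjusted p = 0.154) and -0.59 in CD70Tg mice (-1.41 to 0.22, adjusted p = 0.233, limma). Without the first control Treg library the former was -1.11 and without the second -0.28, and without the first CD70Tg Treg library the latter was -0.36. The interval leaves both no difference and a fall of more than 2-fold possible at this depth.

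In CD70Tg mice, all 7 members were without overlap between the subsets, as were 69.2% of all genes. Slfn9 was called higher and Slfn1 and Slfn2 lower with the threshold on the fold change, against 12.3% and 4.94% of all genes. At an adjusted p under 0.05 alone, Slfn8 and Slfn9 were higher and Slfn1 and Slfn2 lower, against 22.6% and 20.1% of all genes. The same 4 members and the same directions were thus called in both genotypes.

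**Figure D2:**
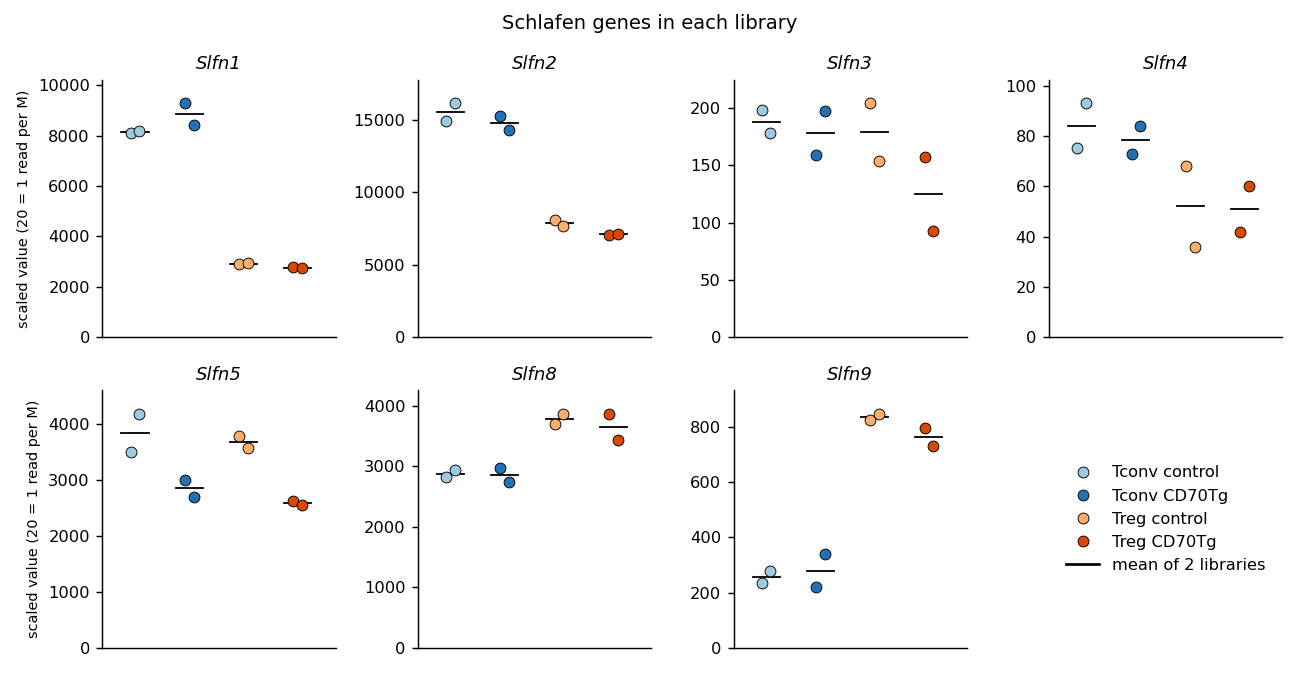
Scaled value (y axis, 20 = 1 read per M) of each Schlafen gene in the 2 libraries of each group (points) with their mean (lines). Slfn1 and Slfn2 are lower in all 4 Treg libraries, Slfn9 is higher in all 4, and the CD70Tg points of Slfn5 lie below the control points in both subsets.

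Along the locus, genes with the same direction were neighbours. Slfn9, Slfn8 and Slfn10-ps stand next to each other and were all higher in Tregs. Slfn10-ps, a transcribed pseudogene, was at 114 and 180 in control Tconvs and 592 and 885 in control Tregs. Its log2 difference was 2.30 in control mice (adjusted p = 5.41e-06) and 2.17 in CD70Tg mice (adjusted p = 1.30e-05, limma), with no overlap in either. Slfn2 and Slfn1, the next genes along and on the other strand, were both lower in Tregs, and Slfn5 at the near end and Slfn4 and Slfn3 at the far end passed the test in neither genotype.

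Parts of these genes are alike in sequence. Of the windows of 75 bases in the transcripts of Slfn8 and of Slfn9, 6.99% and 5.90% occur also in another gene, with Slfn10-ps among the partners of each, and 11.5% of those of Slfn10-ps. The share was 8.22% for Slfn5, mostly with Slfn5os, 6.78% for Slfn3 and 3.12% for Slfn4, and 0 for Slfn1 and 1.70% for Slfn2. Reads from shared windows cannot be assigned to a single gene, so the values of Slfn1 and Slfn2 are the more certain ones in this respect.

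**Figure D3:**
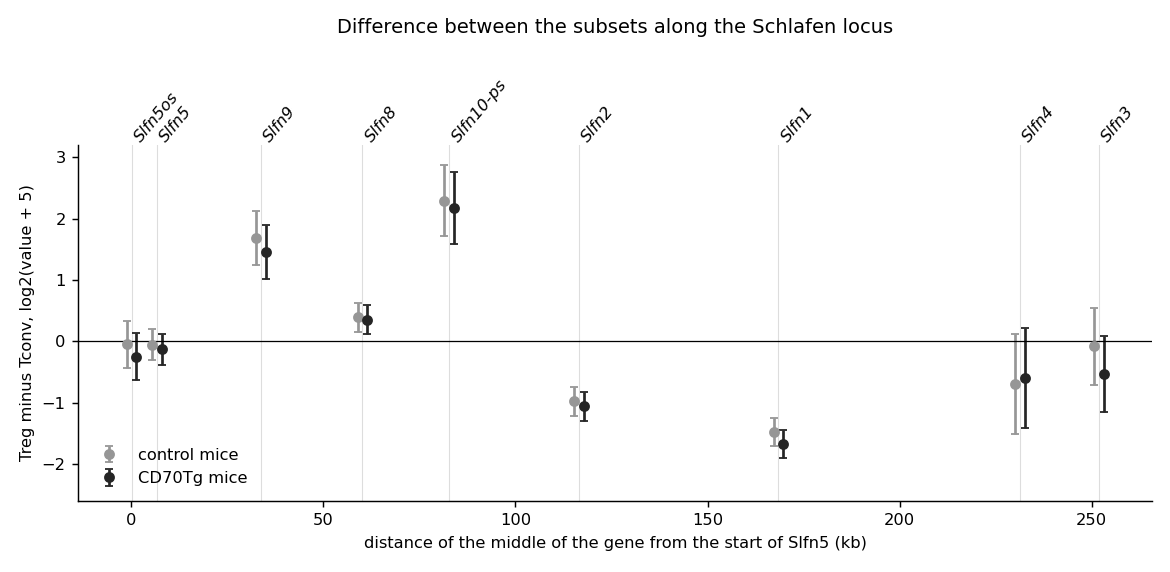
Treg minus Tconv difference of log2(value + 5) (y axis) for each tested gene of the locus against the distance of its middle from the start of Slfn5 in kb (x axis), in control (grey) and CD70Tg mice (black), with 95% intervals. Slfn9, Slfn8 and Slfn10-ps lie above 0 and Slfn2 and Slfn1 below 0 in both genotypes.

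The question of the CD70 transgene was whether chronic CD27 costimulation moved the family in either subset. Slfn5 was the only member past an adjusted p of 0.05, and it fell in both. No member was called in Tregs, Tconvs or the difference between their responses when a log2 change over 1 was also required, where 3.6%, 4.65% and 0.882% of all genes were called. Without that requirement, 3.46% of all genes were lower in CD70Tg Tregs and 1.99% in CD70Tg Tconvs, and 1 of 7 members was lower in each. The groups of 4 members did not overlap in Tregs (Slfn1, Slfn2, Slfn5 and Slfn9, all lower in CD70Tg) and those of 2 in Tconvs (Slfn1 higher and Slfn5 lower), against 53.7% and 45.1% of all genes. The median log2 change of the members was -0.13 in Tregs and -0.07 in Tconvs, and that of all genes -0.05 and 0.01.

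Slfn5 (ENSMUSG00000054404, chr11:82951349-82964840) was at 3800 and 3582 in control Tregs and 2633 and 2567 in CD70Tg Tregs. The CD70Tg libraries agreed closely and both lay below the controls, at 0.705 times their level (95% interval 0.592 to 0.84, log2 change -0.50, SE 0.12, adjusted p = 0.0161, limma). In Tconvs it was at 3498 and 4188 in control and 3003 and 2706 in CD70Tg libraries. These groups did not overlap either, and CD70Tg Tconvs were at 0.745 times the control level (95% interval 0.625 to 0.888, log2 change -0.42, SE 0.12, adjusted p = 0.0343, limma). The difference between the 2 responses was -0.08 on the log2 scale (95% interval -0.44 to 0.28, adjusted p = 0.922, limma).

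The direction of Slfn5 held under all 18 alternatives in both subsets, but the call did not. In Tregs its adjusted p was under 0.05 in 10 of the 18, and in Tconvs in 9 of 18. Without the first or the second control Treg library the adjusted p in Tregs was 0.189 and 0.0733, and without the first or the second CD70Tg Treg library 0.0923 and 0.104. In Tconvs it was 0.321 without the second control library, 0.194 without the second CD70Tg library, and between 0.0575 and 0.0597 when any of the 4 Treg libraries, which take part only in the estimate of spread, was left out. Adjusted p-values with TMM or median-of-ratios factors were 0.0586 and 0.0588 in Tregs (limma). The change in Slfn5 is thus near the threshold in these libraries.

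Slfn5os, an RNA read from the opposite strand, covers the start of Slfn5 and shares 8.84% of the exon length of Slfn5. Whether strand was used in the counting is not given in the sources used here, so reads in the shared stretch cannot be told apart. Slfn5os was at 680 and 530 in control Tregs and 450 and 376 in CD70Tg Tregs, a log2 change of -0.54 (adjusted p = 0.0841), and changed by -0.34 in Tconvs (adjusted p = 0.351, limma). Slfn5 was 5.46 to 6.83 times Slfn5os in every library, with no split by genotype. Slfn10-ps had log2 changes of -0.17 and -0.05 with the transgene in Tregs and Tconvs (adjusted p = 0.782 and 0.955, limma). Slfn14 and the related Slfnl1 on chromosome 4, both at 0 to 9 in all libraries, did not reach the minimum.

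The short members did not pass the test for the transgene. Slfn1 had a log2 change of -0.08 in Tregs (95% interval -0.31 to 0.14, adjusted p = 0.715) and 0.12 in Tconvs (-0.11 to 0.35, adjusted p = 0.636, limma). Slfn2 had a log2 change of -0.15 in Tregs (95% interval -0.39 to 0.08, adjusted p = 0.475) and -0.07 in Tconvs (-0.31 to 0.17, adjusted p = 0.826, limma). These intervals leave room for changes of up to about 0.4 on the log2 scale and not for a 2-fold change. For Slfn8 the changes were -0.05 in Tregs (-0.29 to 0.19) and -0.01 in Tconvs (-0.25 to 0.23, adjusted p = 0.845 and 0.981, limma).

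The low members were less tightly bounded. Slfn9 had log2 changes of -0.13 in Tregs (95% interval -0.57 to 0.31) and 0.09 in Tconvs (-0.35 to 0.53, adjusted p = 0.774 and 0.888, limma). Slfn3 changed by -0.53 in Tregs (95% interval -1.16 to 0.09, adjusted p = 0.32, limma), from 42 and 35 reads in control to 15 and 17 in CD70Tg libraries, which overlap in scaled value. Without the first CD70Tg Treg library this change was -0.90 and without the second -0.17. Its change in Tconvs was -0.08 (adjusted p = 0.933, limma). For Slfn4 the 95% interval of the log2 change was -0.80 to 0.83 in CD70Tg Tregs and -0.90 to 0.73 in CD70Tg Tconvs. By these intervals a change of nearly 2-fold either way was not excluded. Their similar width comes from the estimate of spread that all libraries share, although the Treg libraries held fewer reads. With limma-voom, which weights values by their reads, the intervals were -1.04 to 1.33 in Tregs and -0.55 to 0.55 in Tconvs. None of the 7 differences between the responses of Tregs and Tconvs had an unadjusted p under 0.05, the nearest being that of Slfn1 at -0.20 (95% interval -0.53 to 0.12, adjusted p = 0.705, limma).

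**Figure D4:**
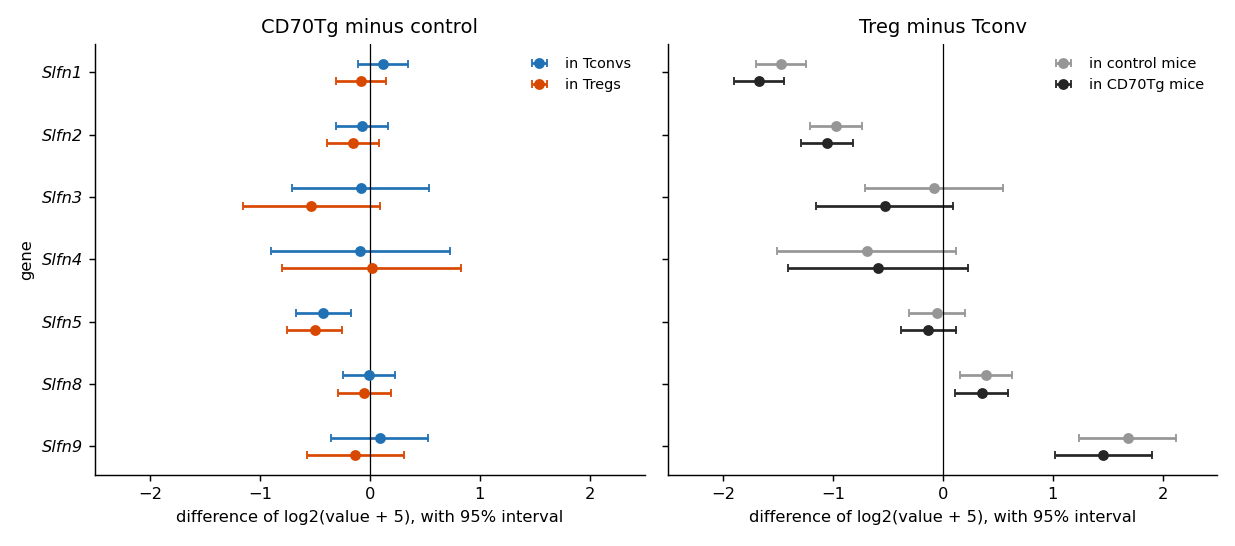
Differences of log2(value + 5) with 95% intervals from limma (x axis) for each Schlafen gene (y axis), on the left for CD70Tg minus control in Tconvs and Tregs and on the right for Treg minus Tconv in control and CD70Tg mice. On the left only the intervals of Slfn5 exclude 0, and on the right those of Slfn1, Slfn2, Slfn8 and Slfn9 do.

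The family was set beside other genes of the interferon response. Of 32 genes listed for the response to IFN-γ, 26 rose in Tregs and 30 in Tconvs, with none lower, and the median log2 changes were 0.80 and 1.01 (adjusted p under 0.05, limma). In the same comparisons 3.94% and 6.82% of all genes rose. Serpina3g, a protease inhibitor, rose most, by 2.41 in Tregs and 3.55 in Tconvs on the log2 scale. Of 40 genes listed for type I interferon, 3 rose in Tregs and 9 in Tconvs, with median log2 changes of 0.22 and 0.38, and Oasl2 was the furthest up of those past the test in both (0.91 and 1.06). Of 12 receptors and signalling proteins, 2 rose in Tregs, among them the receptor chain Ifngr1 by 1.12, and 5 rose and 1 fell in Tconvs. None of the 7 Schlafen members rose in either subset, a count that is near the shares of all genes that rose.

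Among 21 tested genes of T cell quiescence and the naive state, 5 fell in CD70Tg Tregs and 3 in CD70Tg Tconvs, none rose, and the median log2 changes were -0.23 and -0.26. Foxp1, a transcription factor that holds T cells at rest, fell furthest of those past the test, by 0.83 in Tregs and 0.51 in Tconvs on the log2 scale. Among all genes 3.46% fell in Tregs and 1.99% in Tconvs. Between the subsets of control mice, 12 of the 21 were lower and 2 higher in Tregs, with a median log2 difference of -0.50, and in CD70Tg mice 13 and 3 with a median of -0.59. The shares of all genes were 18.4% lower and 27.5% higher in control mice and 20.1% and 22.6% in CD70Tg mice. Ccr7, the receptor for homing to lymph nodes, was the lowest of these in control mice (-2.40) and Tcf7, a factor of naive T cells, in CD70Tg mice (-2.36). Of 20 cell cycle genes, 2 rose in CD70Tg Tregs and 11 in CD70Tg Tconvs, and none fell, where 3.94% and 6.82% of all genes rose. In control mice 11 of them were higher and 3 lower in Tregs than in Tconvs, and in CD70Tg mice 3 were higher and 6 lower. The latter counts lie near the shares of all genes in that comparison, given above, and the median log2 difference of the 20 genes there was -0.045, against -0.022 for all genes.

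**Figure D5:**
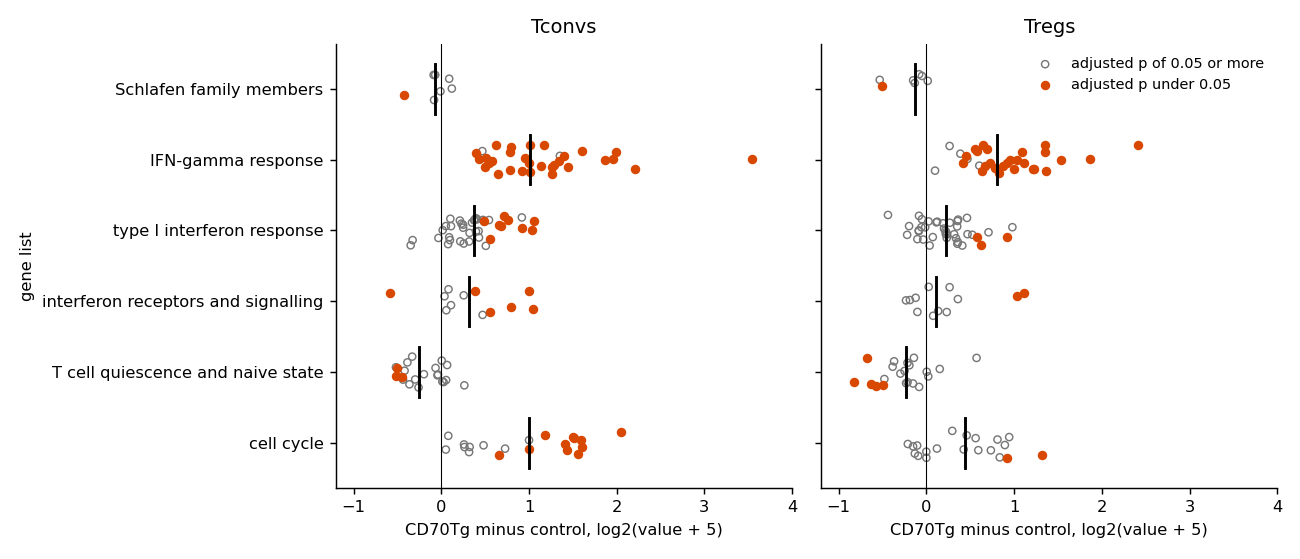
CD70Tg minus control difference of log2(value + 5) (x axis) for the 7 Schlafen genes and the genes of 5 lists (y axis) in Tconvs (left) and Tregs (right), with filled points at an adjusted p under 0.05 (limma) and a bar at each list's median. The Schlafen genes lie near or below 0, with Slfn5 filled, while 30 of 32 IFN-γ response genes in Tconvs and 26 of 32 in Tregs are filled and above 0.

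Markers of other cells moved with the groups as well. The summed scaled value of 10 dendritic cell markers was 1352 to 2639 in control and 3668 to 7441 in CD70Tg Tconvs, and 2993 to 4488 in control and 13347 to 14641 in CD70Tg Tregs. Most of these sums was Cd74, the invariant chain of MHC class II, with means of 1155, 3970, 2789 and about 10730 in that order. Zbtb46, a transcription factor of dendritic cells, had means of 7, 26.5, 26 and 200. Of the dendritic cell markers 5 were tested, of which 2 rose in Tconvs and 4 in Tregs at an adjusted p under 0.05 (limma), and none fell. Itgax, the gene of CD11c, changed by 1.76 in Tconvs (adjusted p = 0.0152) and by 0.42 in Tregs (adjusted p = 0.63, limma). For 14 monocyte, macrophage and neutrophil markers the sums were 3310 to 3450 and 4105 to 7500 in Tconvs and 6431 to 6746 and 9453 to 9659 in Tregs, in the same order. Of the 10 of these that were tested, 2 rose and 1 fell in Tconvs and 4 rose and 1 fell in Tregs, at an adjusted p under 0.05 (limma). In Tconvs the mean of Ccr2, a chemokine receptor, went from 429.5 to 2141, whereas that of the integrin Itgam went from 172 to 86.5 (log2 change -0.95, adjusted p = 0.0269), and in Tregs Csf1r, the macrophage growth factor receptor, changed by -0.67 (adjusted p = 0.0293, limma). The sums for 8 B cell markers were 176 to 203, 79 to 115, 279 to 415 and 476 to 515. Those for 2 CD8 T cell markers were 681 to 720, 1563 to 1590, 317 to 417 and 631 to 660. Of this pair Cd8a had means of 22.5, 558, 48 and 242.5, and Cd8b1 had means of 678, 1018, 319 and 403. Cd8a changed with the transgene by 4.38 in Tconvs and 2.37 in Tregs on the log2 scale (adjusted p = 9.81e-07 and 0.00121, limma). The sums for 7 NK cell markers were 704 to 772, 2885 to 3471, 111 to 157 and 1469 to 1547. The 2 tested NK markers went opposite ways with the transgene, Eomes, a transcription factor also made by T cells, by 3.33 in Tconvs and 4.09 in Tregs and Klrb1c, an NK receptor, by -2.45 and -2.57 on the log2 scale (adjusted p = 0.00275 and 0.00352 for Klrb1c, limma), so that the rise of this sum is that of Eomes. In Tregs of both genotypes, Ncr1, Klra8, Klra4, Klra9 and Klri2 of the NK list were at 0 in both libraries. The 6 Treg markers summed to 5465 to 7361 in Tconvs and 68595 to 76431 in Tregs, and the 8 T cell markers to 130202 to 139232 and 99117 to 108311. The part of these cells in the levels of the Schlafen genes was not tested.

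Of the 24 protein-coding genes within 500 kb that are not listed above, 12 were tested, and 7 of those near it (Zfp830, Lig3, Rffl, Rad51d, Nle1, Ap2b1 and Taf15) had adjusted p-values between 0.319 and 0.986 for the transgene (limma). Among these 7, Rad51d, a DNA repair gene upstream of Slfn5, was higher in Tregs than in Tconvs of control mice (log2 difference 0.42, adjusted p = 0.0441, limma). By the same rule 27.5% of all genes were higher in control Tregs. In CD70Tg mice the log2 difference of Rad51d was 0.11 (adjusted p = 0.602, limma). Further out, 297 to 447 kb beyond Slfn3, Heatr9 and the chemokine genes Ccl5, Ccl3 and Ccl4 rose in CD70Tg cells, Heatr9 by 3.91 in Tregs and 3.63 in Tconvs and Ccl5 by 3.31 and 4.28 on the log2 scale. Slfn5, at the other end of the locus, fell in the same cells.

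The members fell into sets by their pattern over the 8 libraries, here as Pearson's r of log2(value + 5), which is a description since the libraries share groups and depth. Slfn1 and Slfn2 had r = 0.99 with each other, and Slfn8 and Slfn9 r = 0.92. Slfn1 and Slfn9 ran against each other at r = -0.98. Slfn5 followed no other member beyond r = 0.53. The tested genes most like Slfn1 were Ly6c1, a surface protein of T and myeloid cells, Ehd3 and Rasgrp2 (r = 0.996, 0.996 and 0.995). Those most like Slfn2 were Tmie, Tmem9b and Tcf7 (0.997, 0.995 and 0.994).

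Pdcd4, an inhibitor of translation, came first for Slfn5 (r = 0.974), followed by Ssh2 and Brdt (0.950 and 0.949). Its mean scaled value was 8578 in control and 5340 in CD70Tg Tconvs and 7687 in control and 5084 in CD70Tg Tregs, the same layout as Slfn5. For Slfn8 these were Gm42417, P2ry13 and Tsix (0.999, 0.995 and 0.993), and for Slfn9 Camsap1, Rfwd2 and Kmt2b (0.994, 0.991 and 0.991). Slfn3 was most like Ldhb, 3110001I22Rik and Papss1 (0.974, 0.969 and 0.963), and Slfn4 most like Dnajc19, Zmat2 and Spcs1 (0.972, 0.968 and 0.966). By Spearman's rho in place of Pearson's r, only Gm42417 and Rasgrp2 of the 21 genes named stayed among the 3 most like their member, and Ehd3, Camsap1 and Rfwd2 came at ranks 300, 543 and 1053. For the members with a step between the subsets, any gene with the same step scores high on this measure.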

How the data were processed

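RNA-seq libraries of sorted splenic Tconvs and Tregs were taken as the authors deposited them. Adapters had been removed with Trimmomatic 0.36, reads mapped to mm10 with STAR 2.5.3 and counted with HTSeq 0.9.1 (submitters' processing notes). The deposited score values are these counts scaled by the authors to 20 M per library and rounded up, so no count model was the main test. The table names the CD27+/- control columns KO, where the sample descriptions have WT.

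The 4131 rows with clone-derived names, whose steps are those of another library in 7 of 8 columns and of none in the second CD70Tg Treg column, were left out, and of rows sharing a name (97 names) the one with the largest total was kept. A minimum of 60 in 2 or more libraries left 12816 genes, which were tested with limma 3.58.1 in R 4.3.3, with a trend, on log2(value + 5), with 4 group means over 8 libraries and Benjamini-Hochberg adjustment over all genes. Calls used an adjusted p under 0.05, with and without an absolute log2 change over 1. The procedure was tested on simulated data with planted changes larger than those of Slfn5 and Slfn8 here. Changes of that smaller size were not covered. Levels per kb used the union of exons (GENCODE M21). Genes named were the members, their relatives, protein-coding genes within 500 kb, the called extremes of each list, the 3 genes most like each member and the markers of the sorted cells, with Pdcd4 described after its values were seen. A few genes and motifs within these sets are not reported here. The members, lists and tests were chosen with earlier results of these data known. The settings varied were the pseudocount (1 or 20), no minimum, a mean of at least 60, over 10 in every library, the 4 libraries of a comparison alone, factors from TMM or from medians of ratios, limma-voom on reads recovered from the steps, the clone-named rows kept, an adjusted p under 0.01, each library left out, the longest transcript as length, and Spearman's rho.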

Additional observations from a re-analysis of the deposited data

How the results depend on the processing

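The comparisons were repeated under each setting named among the methods, with each of the 8 libraries left out in turn. Of 623 repeated log2 differences of single members, 576 kept their direction and their side of an adjusted p of 0.05 (limma), 21 lost the call, 1 gained it and 25 turned in sign. The calls lost were all of Slfn5 or Slfn8, the call gained was that of Slfn3 between the subsets of CD70Tg mice, and Slfn1, Slfn2 and Slfn9 passed an adjusted p of 0.05 between the subsets under all 18 settings in both genotypes. Every value that turned in sign had an adjusted p of 0.667 or more.

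With no threshold on the fold change, the members lower with the transgene were 1 in place of 0 in each subset, and those between the subsets were 2 higher and 2 lower in control mice and 2 higher in CD70Tg mice. TMM and median-of-ratios factors gave 2 members lower in control Tregs than in control Tconvs with the threshold kept, since the log2 difference of Slfn2 then passed it. At an adjusted p alone, the count of members lower in CD70Tg Tregs was 0 with no minimum, with either set of factors and with limma-voom, and that in CD70Tg Tconvs was 0 with no minimum, with median-of-ratios factors and with the 4 libraries of the comparison alone. An adjusted p under 0.01 left the counts with the threshold on the fold change as they were, but Slfn5 in both subsets with the transgene (0.0161 and 0.0343) and Slfn8 between the subsets of CD70Tg mice (0.0197, limma) lie above it. With a library left out, both of the counts lower with the transgene at an adjusted p alone ranged from 0 to 1, the count lower in control Tregs than in control Tconvs from 1 to 2, and the count higher at an adjusted p alone from 1 to 2 in each genotype.

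With a library left out, the log2 change with the transgene in Tregs ranged from -0.40 to 0.43 for Slfn4 and from -0.14 to 0.034 for Slfn8. In Tconvs it ranged from -0.23 to 0.068 for Slfn3, -0.23 to 0.059 for Slfn4, -0.069 to 0.049 for Slfn8 and -0.22 to 0.40 for Slfn9. The difference between the responses ranged from -0.31 to 0.52 for Slfn4, -0.21 to 0.05 for Slfn5, -0.13 to 0.044 for Slfn8 and -0.54 to 0.091 for Slfn9. Between the subsets of control mice, Slfn3 ranged from -0.28 to 0.12 and Slfn5 from -0.18 to 0.077. The difference between the responses turned to 0.012 for Slfn2, 0.014 for Slfn5 and 0.053 for Slfn8 with TMM factors, and to 0.000604 for Slfn5 and 0.039 for Slfn8 with median-of-ratios factors. Slfn4 changed by 0.0015 in Tconvs with limma-voom. The cause of these changes was not tested.

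No paired analysis was possible because the columns of the table carry a running number and not the replicate numbers of the samples. With 2 libraries a group and 4 to 17 reads on Slfn3 or Slfn4 in the CD70Tg Treg libraries, the changes of these genes are known only within the wide intervals given. The order of the members per kb was the same with the length of the longest transcript.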
